A study of Rattus norvegicus with 16 samples.

Results

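Haem breakdown and iron handling were followed through 8 genes in the renal outer medulla of rats: Hmox1, Blvra, Blvrb, Fth1, Ftl1, Tfrc, Slc11a2 and Slc40a1. Their probes were found by matching the RefSeq accession of each array probe, without its version, to the RefSeq gene table of the rat assembly GRCr8. This gave 23 of the 27460 named probes, and the 8 genes are 8 of 11849 genes tested. All 23 probes were well above background on all 16 arrays, so no member was lost to the filter on dim probes. Hmox1 and Blvra had 1 probe each, Blvrb, Tfrc, Slc11a2 and Slc40a1 3 each, Fth1 4 and Ftl1 5.

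The animals were male Crl:CD Sprague-Dawley rats, 5 weeks old when dosing began. ANP rats received 2-amino-4-nitrophenol, a nitroaromatic compound, at 750 mg/kg/day in corn oil by gavage once daily, and VC rats received corn oil alone. ANP and VC groups were compared after 1, 7, 14 and 28 days, so the animals also differ in age between days. Days 14 and 28 have 3 arrays per group, each from a single animal. Days 1 and 7 have a single array per group, made from RNA mixed from 3 animals, which carries no spread between animals and allows no test. No untreated group without vehicle was analysed here.

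Haem oxygenase 1 opens the haem ring and frees iron, carbon monoxide and biliverdin, and the biliverdin reductases turn biliverdin into bilirubin. Freed iron is held by ferritin, a shell of heavy (Fth1) and light (Ftl1) chains, or leaves the cell through ferroportin (Slc40a1), while transferrin receptor 1 (Tfrc) and the divalent metal transporter DMT1 (Slc11a2) bring iron in. Iron regulatory proteins act on the translation of ferritin and on the stability of the Tfrc transcript, so RNA levels such as those measured here are one layer of control. In the kidney these genes serve tubule cells that reclaim filtered iron and haem proteins, and Hmox1 is known as a gene induced in the injured tubule.

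Values are log2 signals relative to the 75th percentile of each array, which lay between 809.7 and 1324 signal units. A ratio is the log2 value with ANP minus that with VC, errors of ratios are the model's SE (n = 3 per group), and a gene is called when its limma p, adjusted by Benjamini-Hochberg over all 11849 genes, is under 0.05. The brightest probe stands for the gene unless another is named. Straight proximal tubule markers, which belong to the outer medulla, averaged 2.93 to 3.83 over the 16 arrays, and thick ascending limb markers averaged 3.57 to 4.32. Markers of the cortex were present as well, with averages of 2.49 to 4.72 for the convoluted proximal tubule and -1.39 to 1.14 for glomeruli. At day 28 straight tubule markers averaged 3.60 to 3.75 in ANP animals and 3.12 to 3.54 in VC animals. Thick ascending limb markers averaged 3.97 to 4.04 in ANP animals and 3.57 to 3.93 in VC animals. Both lists were higher with ANP without overlap, but their genes differed. Of the 6 straight tubule genes, Slc22a7 (ratio 1.68) and Slc17a3 (1.23) were called as higher, where 4.47% of all genes were. Slc7a13 (0.15) and Slc5a1 (0.17) were not called, nor were Cyp2e1 (-0.45) and Acsm3 (-0.67), which lay below 0. Of the 5 thick ascending limb genes tested, 0 were called. The convoluted tubule, collecting duct and glomerular lists were lower with ANP at day 28, also without overlap. The part of these lists in the ratios of day 28 was not tested. In RNA of whole tissue, fewer cells of a type, less RNA per cell and less cortex in the sample cannot be told apart. The glomerular list also differed between VC animals, with averages of -0.94 to 0.04 at day 14 and 0.78 to 1.14 at day 28. The 3 VC arrays of day 14 and ANP replicate 1 of that day shared a slide, ANP replicates 2 and 3 of day 14 lay on the slide of the 3 VC arrays of day 28, and the 3 ANP arrays of day 28 filled a slide of their own. At day 28 the treatment and the slide cannot be told apart. At day 14 the slide can be held fixed only by setting ANP replicate 1 against the VC arrays, and by limma no gene was called in that fit, with 709 of 11849 at an unadjusted p under 0.05.

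After 1 day Hmox1 stood at 6.001 in the ANP pool and at -1.88 in the VC pool, a log2 ratio of 7.88, and after 7 days at 2.62 in the ANP pool and -1.95 in the VC pool, a ratio of 4.57. Slc40a1 was the other member at least 2-fold apart on both days, with 2.11 against 0.96 at day 1 (2.22-fold) and 1.77 against 0.65 at day 7 (2.17-fold) in the ANP and VC pools. These are 2 of 8 members on each day, where 4.83% of 12413 genes at day 1 and 2.12% of 12122 genes at day 7 were at least 2-fold higher. The members and gene lists were chosen with earlier results of these data known. Their counts beside the shares of all genes are therefore a description and no test of enrichment. At day 14 none of the 8 members was called by limma, and 2 of them, Hmox1 and Blvrb, had an unadjusted p under 0.05. Over all genes 0.481% were called at day 14 and 13.4% had an unadjusted p under 0.05. At day 28 Blvrb and Tfrc were called, both higher with ANP (2 of 8, where 7.11% of genes were called in either direction and 4.47% as higher). Over days 14 and 28 together Hmox1 and Blvrb rose and Slc11a2 fell (3 of 8, where 10.2% of genes were called, 6.14% as higher and 4.03% as lower). The median ratio of the 8 members was 0.11 at day 14, 0.18 at day 28 and 0.18 over both days, beside 0.01, 0.02 and 0.01 over all genes tested. Groups did not overlap for Hmox1 at day 14 (background 18.1%) and for Blvrb, Tfrc and Slc11a2 at day 28 (background 32.8%). No member was called for the difference between the day 28 and day 14 ratios by limma, where 0% of genes passed. At an unadjusted p under 0.05 this test held 1 member, Tfrc, and 1098 genes (9.27%).

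**Figure D1:**
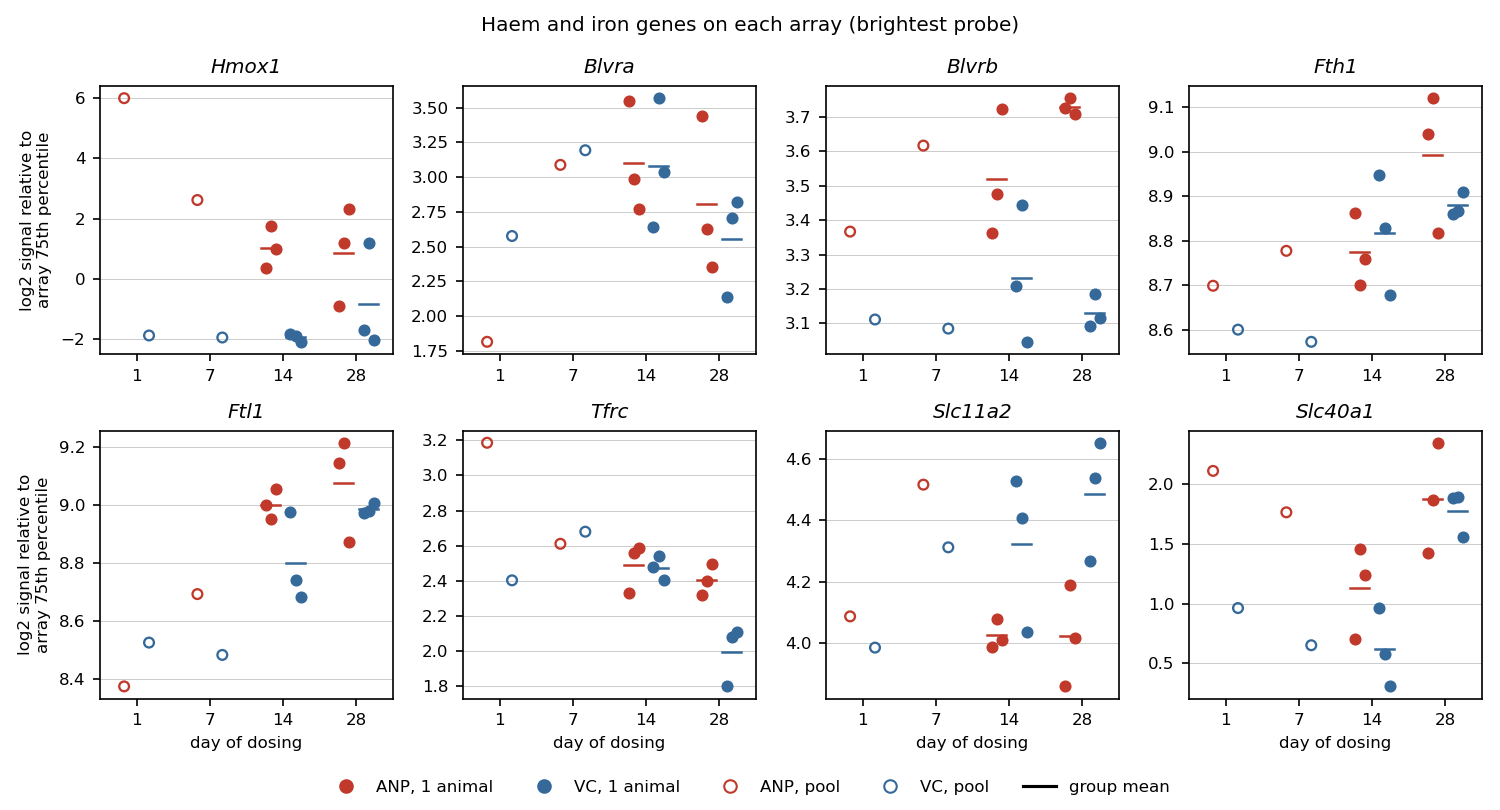
Log2 signal relative to the array's 75th percentile (vertical axes, a scale of its own in each panel) of the brightest probe of each gene by day of dosing (horizontal axes). Filled points are single animals, open points pools of 3 animals, red is ANP, blue is VC and short lines are group means. Hmox1 reaches 6.001 in the ANP pool of day 1, and 1 VC animal of day 28 stands at 1.19 beside -1.69 and -2.03 in the other VC animals of that day.

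Hmox1, which carries out the first step of haem breakdown, had values of 0.36, 1.74 and 1.00 in the ANP animals of day 14 and of -1.83, -1.90 and -2.09 in their VC animals. Every ANP animal of day 14 stood above every VC animal. The ratio was 2.97 ± 0.90 and was not called (limma adjusted p = 0.199). On the slide that held both groups the ratio, from ANP replicate 1 alone, was 2.30. When the 6 arrays of day 14 were fitted by themselves, the limma adjusted p was 0.04998. At day 28 the ANP animals had -0.91, 1.18 and 2.32 and the VC animals -1.69, 1.19 and -2.03. The groups overlapped, because VC replicate 2 stood as high as ANP replicate 2, and the ratio was 1.71 ± 0.90 (limma adjusted p = 0.256). It was 0.98 without ANP replicate 3, 1.11 without VC replicate 3, 1.29 without VC replicate 1, 2.60 without ANP replicate 1 and 2.73 without VC replicate 2, and was called in none of these fits (limma adjusted p from 0.102 to 0.524). Over both days Hmox1 rose 5.07-fold (2.34 ± 0.64, limma adjusted p = 0.0445). This call held without VC day 28 replicate 2 (ratio 2.85, limma adjusted p = 0.0176) or without ANP day 28 replicate 1 (2.79, adjusted p = 0.0199). Without any 1 of the other 10 arrays it was lost, with limma adjusted p from 0.0578 to 0.102 and ratios from 1.98 to 2.51.

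VC day 28 replicate 2 exceeded the mean of the other VC animals of its day by 3.05 log2 units for Hmox1, and 7 of 11847 genes stood at least as far above that mean on this array, Hmox1 included. Its other member genes stood between -0.02 and 0.23 from that mean. Relative to that mean the 5 injury markers stood at -0.78 (Havcr1, kidney injury molecule 1), -3.31 (Lcn2, lipocalin 2), -1.06 (Spp1), 0.24 (Clu) and 0.16 (Vim). Across genes this array correlated with the other VC arrays of its day at 0.992 and 0.993, as the other pair did at 0.992. Whether this value comes from the animal or from the array was not tested. Tubular injury markers (5 of 5 measured: Havcr1, Lcn2, Clu, Spp1 and Vim) averaged 3.93 in the ANP pool and 0.72 in the VC pool of day 1, and 1.76 in the ANP pool and 0.82 in the VC pool of day 7. At day 14 they averaged 1.27 to 2.55 in ANP animals and 0.62 to 1.13 in VC animals, and at day 28 0.51 to 0.88 in ANP animals and -0.10 to 0.88 in VC animals. Their part in the Hmox1 values was not tested.

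The genes whose values ran most closely with those of Hmox1 over the 16 arrays, among 11848 genes, were Cimap2 (Pearson r = 0.970), B4galt6 (0.941), Ccng1 (0.934), Ugt2b7 (0.931) and Txnrd1 (0.915). The arrays share 4 slides and a day and treatment structure, and the pool of day 1 lies far from the rest, so these values only describe the likeness. In VC day 28 replicate 2, Cimap2 and Ugt2b7 (a glucuronidating enzyme) stood 2.24 and 1.22 over the mean of the other VC animals of that day. B4galt6, Ccng1 and Txnrd1, a thioredoxin reductase, stood 0.22, 0.19 and 0.05 above it. That array is among the 16 by which these genes were picked, so their values there are no separate evidence on its Hmox1 value. Hmox2, the constitutive haem oxygenase, had ratios of -0.49 in the pools of day 1 and 0.25 in those of day 7, and was not called at day 14 (-0.08) or day 28 (0.29, limma adjusted p = 0.129).

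The biliverdin reductases differ in their isomer: Blvra acts on biliverdin IX-alpha, the product of haem oxygenase, and Blvrb on the IX-beta isomer and on flavins. RefSeq promoter sequences on GRCr8 were at hand for Blvra, Blvrb, Tfrc, Slc11a2 (2 starts) and Slc40a1, and the 250 bases before the start were searched on both strands for TGACNNNGC, the core of the antioxidant response element, and ACGTG, the core of the hypoxia response element. The first was held by 10.1% of 33469 RefSeq promoters of this length and the second by 16.6%. Blvra and Blvrb are shown because 1 of these enzymes rose and the other was not called. The Blvrb window, chr1:91866008-91866257 on the plus strand, held neither motif and is in lower case throughout. The Blvra window, chr3:134802660-134802909 on the plus strand, held TGACNNNGC on the opposite strand, in capitals, at position -145 relative to the start.
Blvrb: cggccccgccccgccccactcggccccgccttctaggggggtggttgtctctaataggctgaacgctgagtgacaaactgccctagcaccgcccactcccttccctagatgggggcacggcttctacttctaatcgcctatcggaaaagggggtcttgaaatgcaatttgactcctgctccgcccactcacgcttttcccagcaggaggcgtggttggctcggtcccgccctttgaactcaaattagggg
Blvra: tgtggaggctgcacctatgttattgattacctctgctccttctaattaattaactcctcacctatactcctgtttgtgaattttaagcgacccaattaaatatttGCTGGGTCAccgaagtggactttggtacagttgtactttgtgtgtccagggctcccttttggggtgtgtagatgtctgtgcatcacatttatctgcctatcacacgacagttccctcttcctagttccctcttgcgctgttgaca

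Blvrb was at 3.72, 3.75 and 3.71 in the ANP animals of day 28 and at 3.09, 3.18 and 3.12 in their VC animals. The groups lay apart, with little spread within either. Blvrb rose 1.51-fold at day 28 (0.60 ± 0.12, limma adjusted p = 0.0172). This call was lost without VC day 28 replicate 1 (limma adjusted p = 0.0658), VC day 28 replicate 2 (0.0569) or ANP day 28 replicate 2 (0.0577), at ratios from 0.58 to 0.62. At day 14 the values were 3.36, 3.48 and 3.72 in ANP animals and 3.21, 3.44 and 3.05 in VC animals, which overlap (0.29 ± 0.12, limma adjusted p = 0.313). Over both days Blvrb rose by 0.44 ± 0.08 (limma adjusted p = 0.0104), and it passed without any 1 of the 12 arrays (adjusted p from 0.00914 to 0.0298).

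The other Blvrb probes gave larger ratios at day 14. The second brightest read 3.23, 3.10 and 3.26 in ANP animals and 2.63, 2.49 and 2.39 in VC animals of day 14, and the dimmest read 2.61, 2.43 and 2.62 in ANP animals and 1.89, 1.83 and 1.69 in VC animals. On both probes every ANP animal stood above every VC animal, with ratios of 0.69 ± 0.11 and 0.75 ± 0.12. With each probe tested on its own over 20571 probes, an alternative chosen after these probes were seen to differ, both passed at day 14 (limma adjusted p = 0.0365 and 0.0342, where 0.35% of probes were called as higher). All 3 passed at day 28 (ratios 0.60 to 0.72, background 3.86% higher) and over both days (background 5.37% higher). On the slide with both groups of day 14 the ratios of the 3 probes, brightest first, were 0.13, 0.73 and 0.81. In the pools they were 0.26, 0.72 and 0.64 at day 1 and 0.53, 0.90 and 0.85 at day 7, all above 0.

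Blvra gave no such pattern. Its values were 3.44, 2.63 and 2.35 in ANP animals and 2.14, 2.70 and 2.82 in VC animals of day 28, and 3.55, 2.99 and 2.77 in ANP animals and 2.64, 3.57 and 3.04 in VC animals of day 14. The groups overlapped on both days, with a wide spread within each. The ratios were 0.02 ± 0.33 at day 14 and 0.25 ± 0.33 at day 28 (limma adjusted p = 0.989 and 0.667), and -0.76 and -0.11 in the pools of days 1 and 7. The ratio of Blvrb, as the mean of its probes, exceeded that of Blvra by 0.49 over both days, which is given without a test because the pair was set side by side after its values had been seen. The RefSeq table also holds 1 further locus named after each of these genes.

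With each probe tested on its own, the alternative chosen after probes were seen to differ, ferritin light chain rose on 4 of its 5 probes at day 28. No probe of the heavy chain was called. Over all probes 0.35% were called as higher at day 14 and 3.86% at day 28. The probes of a gene were read in the same animals, so they are not separate replicates. The fourth brightest Ftl1 probe read 8.14, 8.57 and 8.25 in ANP animals and 7.34, 7.51 and 7.34 in VC animals of day 28, and 8.06, 7.86 and 7.99 in ANP animals and 7.42, 7.26 and 7.11 in VC animals of day 14. The groups stood apart on both days. Its ratio was 0.92 ± 0.12 at day 28 (1.90-fold, limma adjusted p = 0.00535 over probes) and 0.71 ± 0.12 at day 14 (1.64-fold, limma adjusted p = 0.0479). The brightest Ftl1 probe read 9.15, 9.22 and 8.87 in ANP animals and 8.97, 8.98 and 9.01 in VC animals of day 28, which overlap, and its ratio was 0.09 ± 0.11 (limma adjusted p = 0.618 over genes). It therefore stood among the members not called. With probes ordered from the brightest to the dimmest, the ratios were 0.20, 0.35, 0.61, 0.71 and 0.74 at day 14, of which the last pair passed, and 0.09, 0.44, 0.70, 0.92 and 0.79 at day 28, of which all but the first passed. On 4 of the 5 probes all ANP animals stood above all VC animals at both days, as they did on 9.83% of probes at day 14 and 17.9% at day 28. On the slide with both groups of day 14 the ratios ran from 0.20 to 0.80. In the pools they ran from -0.15 to 0.83 at day 1 and from 0.21 to 0.94 at day 7, lowest on the brightest probe each time.

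When the probes of a gene were averaged, Ftl1 rose at day 28 (0.59, limma adjusted p = 0.0181) and over both days (0.56, limma adjusted p = 0.00372). The highest median signal of an Ftl1 spot reached 71.8% of the scanner's saturation value on the brightest probe and 73.2% on the second brightest, against 35.9% on the dimmest, and no spot was marked as saturated. Whether high signal flattened the ratio of the brightest probe was not tested. The RefSeq table holds 21 further loci named after Ftl1 and 6 named after Fth1, and signal from near-identical copies cannot be told apart from that of the genes themselves.

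Fth1 read 9.04, 9.12 and 8.82 in ANP animals and 8.86, 8.87 and 8.91 in VC animals of day 28, and 8.86, 8.70 and 8.76 in ANP animals and 8.95, 8.83 and 8.68 in VC animals of day 14. Groups overlapped on all 4 probes at both days. The 4 ratios lay between -0.04 and 0.03 at day 14, between 0.03 and 0.17 at day 28, between -0.15 and 0.28 in the pools of day 1 and between 0.14 and 0.27 in those of day 7. With the probes of each gene averaged, the Ftl1 ratio exceeded that of Fth1 by 0.52 at day 14, 0.49 at day 28 and 0.51 over both days. This pair too was set side by side after its values had been seen, so these differences are a description without a test.

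**Figure D2:**
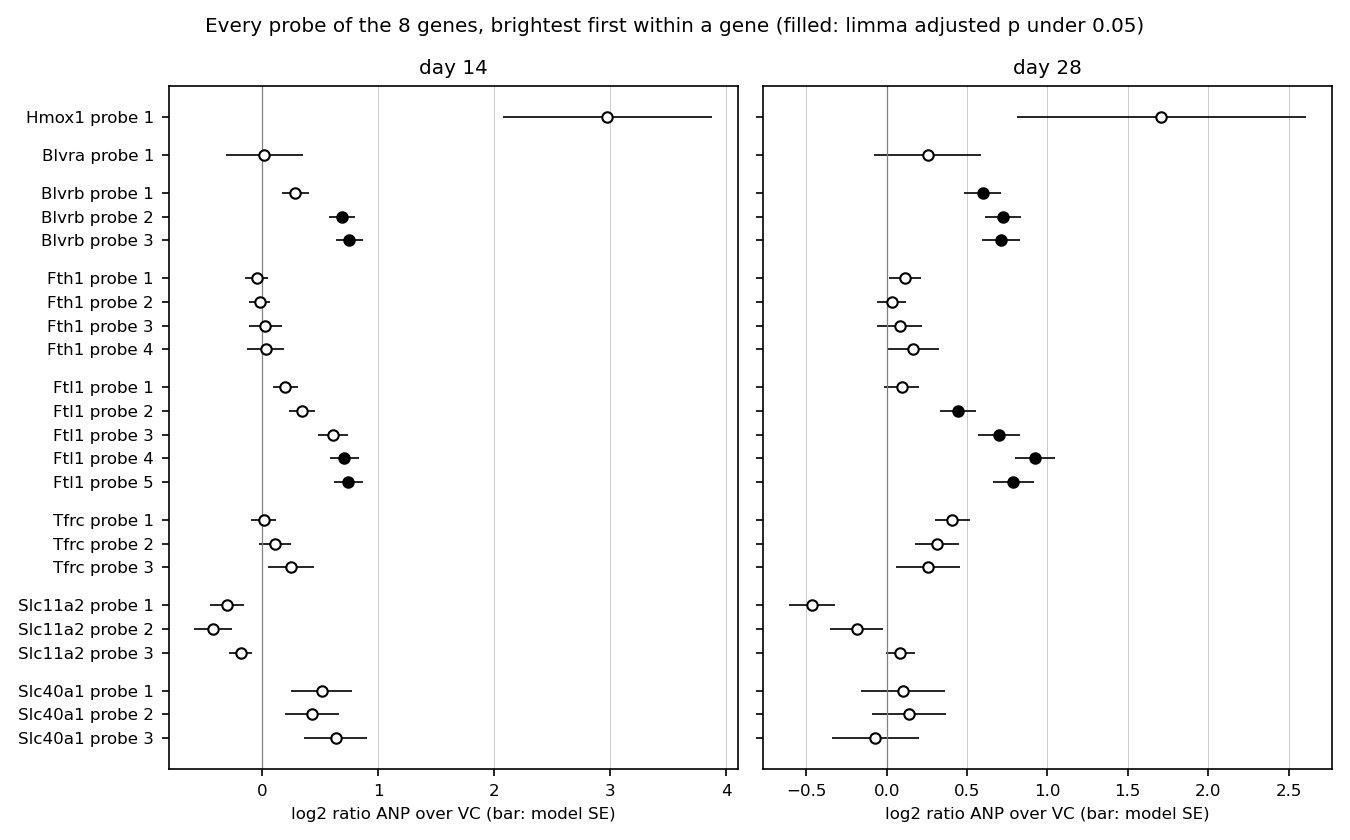
Log2 ratio of ANP over VC (horizontal axes, scaled apart for each panel) at day 14 (left) and day 28 (right) for each of the 23 probes, brightest first within a gene, with bars for the model's SE and filled points for a limma adjusted p under 0.05 over 20571 probes. Filled points are 2 Blvrb and 2 Ftl1 probes at day 14, and 3 Blvrb and 4 Ftl1 probes at day 28, while the 4 Fth1 probes lie between -0.04 and 0.17 on both days.

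Tfrc takes up iron bound to transferrin. Its window before the start is shown because Tfrc is the importer called at day 28 and held the second motif. It lies at chr11:81690319-81690568 on the minus strand of GRCr8, with ACGTG, in capitals, at position -31 on the strand of the gene.
Tfrc: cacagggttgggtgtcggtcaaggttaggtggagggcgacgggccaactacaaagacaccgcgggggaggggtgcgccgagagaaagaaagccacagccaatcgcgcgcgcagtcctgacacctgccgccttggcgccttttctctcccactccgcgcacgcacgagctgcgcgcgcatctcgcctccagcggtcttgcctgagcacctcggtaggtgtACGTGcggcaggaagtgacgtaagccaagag
Slc11a2 and Slc40a1 held neither motif in their windows.

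Tfrc read 2.32, 2.40 and 2.50 in ANP animals and 1.80, 2.08 and 2.11 in VC animals of day 28. Every ANP animal stood above every VC animal, and Tfrc was 1.33-fold higher with ANP (0.41 ± 0.11, limma adjusted p = 0.0463). The other Tfrc probes had ratios of 0.31 and 0.26 and did not pass (limma adjusted p = 0.187 and 0.448 over probes), and over probes the brightest had an adjusted p of 0.0513. Of the 12 fits that each left out 1 array, only that without ANP day 14 replicate 1 kept the call (limma adjusted p = 0.0454), and the others gave 0.0541 to 0.148, at ratios from 0.31 to 0.47. At day 14 the ratio was 0.02 ± 0.11 (limma adjusted p = 0.968), with 2.33, 2.56 and 2.59 in ANP animals and 2.48, 2.54 and 2.41 in VC animals. The difference between the ratios of day 28 and day 14 was 0.39 (unadjusted p = 0.0262, limma adjusted p = 0.492).

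The VC animals also differed between days for Tfrc. From the values above, Tfrc was lower in VC animals of day 28 than in those of day 14 without overlap (-0.48 ± 0.11, limma adjusted p = 0.0196). Between the ANP animals of these days, also on different slides, the difference was -0.09 ± 0.11 and was not called (limma adjusted p = 0.623). Of the 8 members Tfrc and Slc40a1 differed between these VC groups, where 11.2% of all genes did and 34.7% did not overlap. The VC groups lay on different slides, so age, days of dosing and slide cannot be told apart. In the pools Tfrc stood at 3.19 with ANP and 2.40 with VC at day 1, a ratio of 0.78 (1.16 and 0.96 on the other probes), and at 2.61 with ANP and 2.68 with VC at day 7.

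Erythroid cells express Tfrc strongly, and erythroid markers (8 of 10 measured) averaged 2.39 to 3.44 in ANP animals and 1.72 to 1.81 in VC animals of day 28, again without overlap. Of these, Alas2, Klf1, Ahsp, Hba-a1 and Hbb rose at day 28 (5 of 8, where 4.47% of all genes were called as higher, ratios from 0.85 to 2.01, limma adjusted p from 0.00703 to 0.0438), and Hbb-b1 (1.04), Epb42 (1.16) and Slc4a1 (0.25) were not called. At day 14 the list averaged 2.27 to 2.74 in ANP animals and 1.82 to 2.76 in VC animals. At day 1, when the Tfrc ratio was largest, it averaged 2.66 in the ANP pool and 3.03 in the VC pool. This list too was chosen with earlier results of these data known, so its count beside the share of all genes only describes it. The part of the erythroid genes in the Tfrc values was not tested.

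The 5 genes that ran most closely with Tfrc over the 16 arrays were Hap1 (Pearson r = 0.923), Radil (0.907), Cry1 (0.899), Plk2 (0.897) and Rad18 (0.896). Each of them was higher in the ANP pool than in the VC pool of day 1, by 0.94 to 1.88. These pools are among the 16 arrays by which the genes were picked, and Tfrc was highest in that ANP pool. The difference therefore follows in part from the choice of genes.

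Slc11a2, which carries ferrous iron across membranes, read 3.86, 4.19 and 4.02 in ANP animals and 4.27, 4.54 and 4.65 in VC animals of day 28, and 3.99, 4.08 and 4.01 in ANP animals and 4.53, 4.41 and 4.03 in VC animals of day 14. The groups were apart at day 28 and overlapped at day 14, where VC replicate 3 was as low as the ANP animals. The ratios were -0.46 ± 0.14 at day 28 and -0.30 ± 0.14 at day 14, neither called (limma adjusted p = 0.0784 and 0.407), and -0.34 on the slide with both groups of day 14. Over both days Slc11a2 fell 1.30-fold (-0.38 ± 0.10, limma adjusted p = 0.0410). The other probes had ratios of -0.19 and 0.09 at day 28 and -0.42 and -0.18 at day 14, none of them called. With probes averaged the ratio over both days was -0.11 (limma adjusted p = 0.623). On the dimmest probe the spot of ANP day 14 replicate 3 was marked as an outlier and left out. In the pools of days 1 and 7 the Slc11a2 ratios were 0.10 and 0.20. At day 28 convoluted proximal tubule markers (6 of 6 measured) averaged 3.93 to 4.09 in ANP animals and 4.32 to 4.72 in VC animals, without overlap. Within this list Slc22a12 rose at day 28 (0.85, limma adjusted p = 0.0300) and 0 genes were called as lower. Collecting duct markers (6 of 6 measured) averaged 2.85 to 3.49 in ANP animals and 3.58 to 3.75 in VC animals, also without overlap. Of these, 2 were called as lower and 0 as higher, where 7.11% of all genes were called in either direction. At day 14 the convoluted tubule markers averaged 2.49 to 2.97 in ANP animals and 2.57 to 3.84 in VC animals, lowest among the VC animals in replicate 3, and the collecting duct markers 2.85 to 3.19 in ANP animals and 3.15 to 3.58 in VC animals, highest in that replicate. Their part in the Slc11a2 values was not tested.

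The Slc11a2 call over both days held without VC day 14 replicate 3, VC day 28 replicate 1 or ANP day 28 replicate 2 (limma adjusted p = 0.0163, 0.0405 and 0.0481). It was lost without any 1 of the other 9 arrays (adjusted p from 0.0657 to 0.0939), at ratios from -0.33 to -0.39.

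Slc40a1, the exporter of iron from cells, was higher in the ANP pool than in the VC pool on all 3 probes, by 1.15, 0.54 and 0.94 at day 1 and by 1.12, 1.00 and 0.99 at day 7. At day 14 it read 0.70, 1.45 and 1.24 in ANP animals and 0.96, 0.58 and 0.30 in VC animals, and at day 28 1.42, 1.87 and 2.35 in ANP animals and 1.89, 1.89 and 1.56 in VC animals. The groups overlapped on both days and neither ratio was called (0.51 ± 0.26 and 0.10 ± 0.26, limma adjusted p = 0.438 and 0.846). On the slide with both groups of day 14 the ratio was 0.09. The VC animals of day 28 stood above those of day 14 (1.16 ± 0.26, 2.24-fold, limma adjusted p = 0.0204), and the other probes passed as well (1.04 and 1.15, where 6.37% of probes were called as higher).

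Macrophages also export iron through Slc40a1. Macrophage markers (8 of 10 measured, with Marco and Vsig4 well above background on no array) averaged 0.81 in the ANP pool and 0.67 in the VC pool of day 1, and 0.45 in the ANP pool and 1.03 in the VC pool of day 7. They averaged 0.52 to 0.94 in ANP animals and 0.28 to 0.84 in VC animals of day 14, and 0.23 to 0.31 in ANP animals and 0.22 to 0.48 in VC animals of day 28, where 0 of 8 passed by limma and 0 had an unadjusted p under 0.05. In the VC animals of day 28 glomerular markers averaged 0.78 to 1.14 and convoluted proximal tubule markers 4.32 to 4.72, against -0.94 to 0.04 and 2.57 to 3.84 in the VC animals of day 14. Their part in the Slc40a1 values was not tested.

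**Figure D3:**
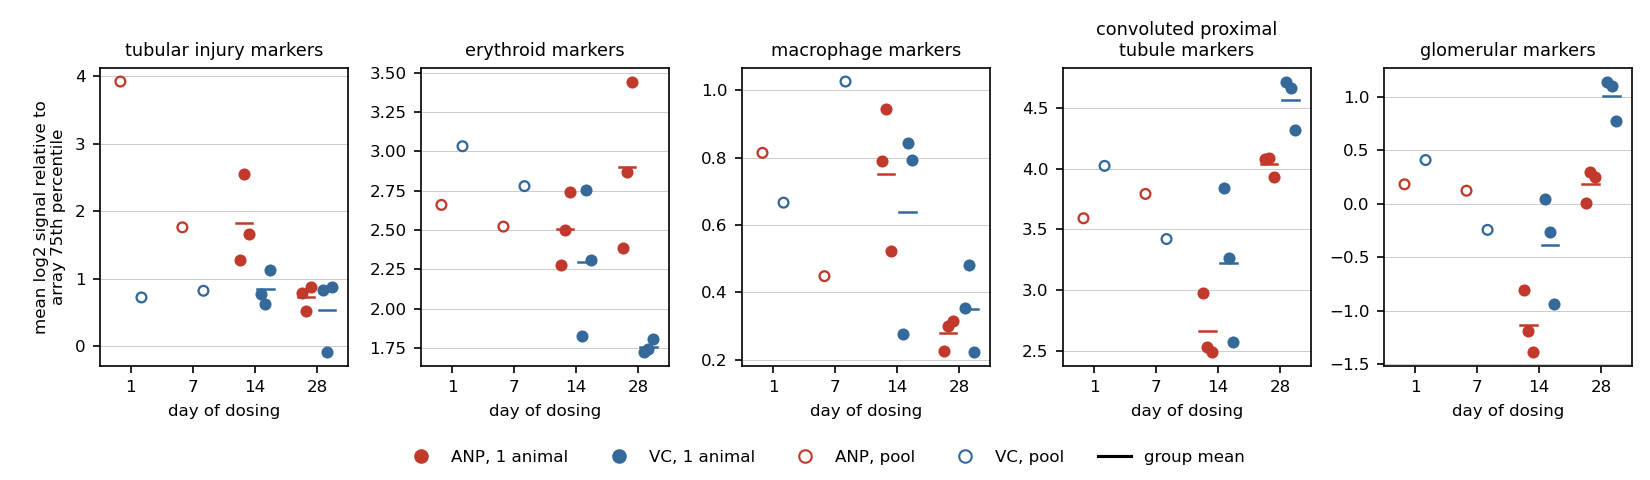
Mean log2 signal of 5 marker lists on each array (vertical axes, a scale of its own in each panel) by day of dosing. Filled points are single animals, open points pools, red is ANP, blue is VC and short lines are group means. At day 28 the erythroid mean is 2.39 to 3.44 in ANP animals and 1.72 to 1.81 in VC animals, and the glomerular mean is 0.01 to 0.29 in ANP animals and 0.78 to 1.14 in VC animals.

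The neighbouring steps were followed in 82 other genes of haem and iron handling, of which 76 had a named probe and 74 were tested. At day 28 10 rose and 1 fell (14.9%, background 7.11%), over both days 11 rose and 3 fell (18.9%, background 10.2%), and at day 14 Slc48a1 alone rose (background 0.481%). Their median ratio at day 28 was 0.10, beside 0.02 over all genes tested. Because these lists were chosen with earlier results of these data known, their shares beside the background are no test of enrichment. The count at day 28 came to 2 without VC replicate 1, 4 without VC replicate 2 or VC replicate 3, 3 without ANP replicate 2, and 3 when the 6 arrays of that day were fitted by themselves. Over all 11849 genes the number called at day 28 fell as well, from 842 to 215, 211, 473, 297 and 431 in these fits, in that order.

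Of the 9 haem synthesis genes, 2 rose at day 28, where 4.47% of all genes were called as higher. These 2 encode the entry enzyme of the pathway. Alas1, its ubiquitous form, rose 2.40-fold (1.27 ± 0.29, limma adjusted p = 0.0323) and by 1.39 ± 0.21 over both days (limma adjusted p = 0.00414), and Alas2, the erythroid form and a marker of the erythroid list, rose 3.10-fold (1.63 ± 0.38, limma adjusted p = 0.0313). The other 7 were not called at day 28. Slc48a1, which moves haem out of lysosomes, rose at day 14 (0.75, limma adjusted p = 0.0261) and at day 28 (0.53, adjusted p = 0.0234), with ratios of 0.85 and 0.91 in the pools. Hebp1, a haem-binding protein, rose by 0.70 at day 28 (limma adjusted p = 0.0319). Bach1, a repressor of Hmox1 that haem inactivates, had ratios of 1.37 and 0.75 in the pools and was not called at day 28 (0.37), and the small Maf gene Maff had a ratio of 2.62 at day 1. Of the 17 genes tested for haem capture, haem transport and the regulation of haem breakdown, 15 were not called at day 28.

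Among 17 genes of iron uptake, reduction, oxidation and release, Lrp2 alone was called at day 28 and fell (-0.72, limma adjusted p = 0.0253). This is 5.88% of the list, where 7.11% of all genes were called. Over both days 2 of these genes rose and 3 fell, Lrp2 among them (29.4%, where 10.2% of all genes were called). Lrp2 (megalin) and Cubn (cubilin) form the receptor that takes filtered transferrin into proximal tubule cells, and Cubn fell over both days (-0.51, limma adjusted p = 0.0325), as did the ferrireductase Steap2 (-0.49). Cybrd1, another ferrireductase, rose by 1.33 over both days (limma adjusted p = 0.0370), and Mcoln1, a lysosomal cation channel, by 0.29. The part of the convoluted proximal tubule markers, given beside Slc11a2, in the Lrp2 ratio was not tested. None of the 3 genes of iron storage and chaperones and none of the 10 of iron sensing and the hepcidin axis was called by limma. This held at day 14, at day 28 and over both days, where 0.481%, 7.11% and 10.2% of all genes were called. Lists this short can hold no called gene at such shares. Over both days 2 of the 3 (66.7%) and 2 of the 10 (20%) had an unadjusted limma p under 0.05, where 27.3% of all genes did. Of 14 genes of mitochondrial iron and iron-sulfur clusters, 3 rose at day 28, where 4.47% of all genes were called as higher. They were Slc25a39 (0.72, limma adjusted p = 0.00913), a mitochondrial carrier, Fdx2 (0.46, adjusted p = 0.0130), a ferredoxin, and Isca2 (0.43, adjusted p = 0.0384), a cluster assembly factor.

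Bilirubin is conjugated by Ugt1a1 and carried out of cells by Abcc2 and Abcc3. These 3 of the 4 bilirubin handling genes tested rose at day 28, where 4.47% of all genes were called as higher. The list was chosen with earlier results of these data known, so this count is a description. Abcc2 rose 4.44-fold (2.15 ± 0.51, limma adjusted p = 0.0349), Abcc3 by 0.85 (limma adjusted p = 0.0376) and Ugt1a1 by 0.82 (limma adjusted p = 0.0130). In the pools the Abcc2 ratio was 4.17 on day 1 and 3.65 on day 7, and that of Ugt1a1 0.46 and 0.41. Slco1a1, an organic anion uptake carrier, had a ratio of -1.36 ± 0.70 at day 28 and was not called (limma adjusted p = 0.245).

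**Figure D4:**
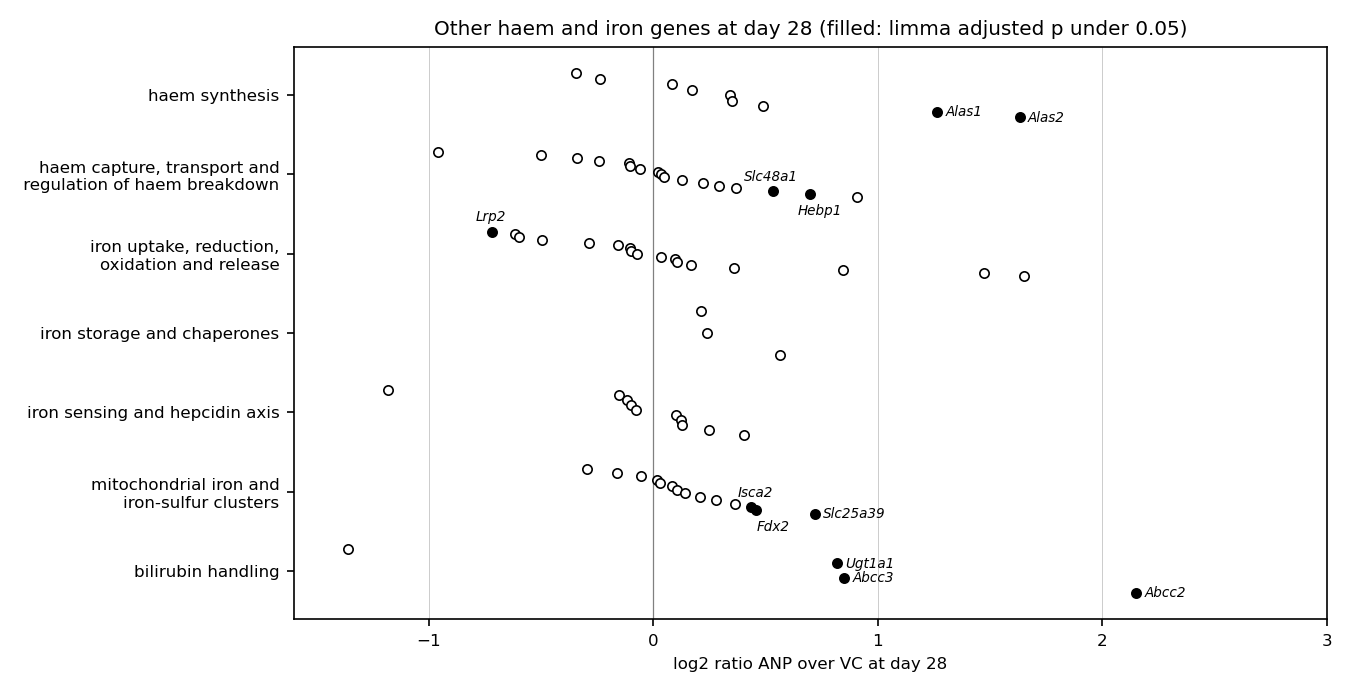
Log2 ratio of ANP over VC at day 28 (horizontal axis) for the 74 other haem and iron genes tested, 1 row per list (vertical axis), with filled, named points for a limma adjusted p under 0.05. The 10 genes that rose lie between 0.43 and 2.15, and Lrp2 at -0.72 is the gene that fell.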

How the data were processed

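Total RNA of the outer medulla was labelled with Cy3 and hybridised to 16 one-colour rat arrays. The submitters' processing notes name Agilent Feature Extraction 10.7 for reading spot intensity. In the deposited scanner files stands the authors' background-subtracted processed signal intensity, per the file headers, and the deposited value table holds a ratio of that signal to each array's 75th percentile, which matched the scanner values (r at least 0.9999), so its scale is linear, it is not centred by gene and its direction is that of the signal. The build of the array annotation was not used.

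From the processed signal intensity of 61657 probes, log2 was taken and each array's 75th percentile subtracted. Spots marked as outliers, at most 9 on an array, were dropped, and saturation marks were absent. Between 64.8% and 69.6% of probes were well above background, and replicate arrays had correlations of 0.987 to 0.993. Precision is limited by how many arrays there are. Named probes (27460, of 15284 genes, by RefSeq accession on GRCr8) were reduced to the brightest probe of a gene, provided that in 1 or more of the 4 groups of days 14 and 28 every array had it well above background. Tests used lmFit and eBayes of limma 3.58.1 (R 4.3.3) on these 12 arrays, with 1 mean per group and Benjamini-Hochberg adjustment over genes. Pools were compared by a 2-fold threshold without a test. The fit was also run on simulated data with known differences and no slide effect, so that run cannot speak to the slides.

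The labels describe replicates as separate animals. Correlations of the deviations of ANP and VC animals with the same number ran from -0.07 to 0.14. They cannot show whether the numbers pair the animals, and the main fit used no pairing. The members and gene lists were chosen with earlier results of these data known. The rule for named genes took all members with every probe, list genes past the threshold or with the largest pool ratios, the 5 genes most like Hmox1 and Tfrc, and markers beside a member they moved with. A list gene that the rule would name is not reported here. Other genes of the lists and the VC array that stood apart were described after their values were seen. The alternatives were other scalings, background correction, filters, probes, blocks and fits without 1 array. List genes without a value were not analysed here.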

Additional observations from a re-analysis of the deposited data

How the results depend on the processing

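With 3 animals per group, most single calls were near the threshold. No alternative reversed a called result. At day 14 the count of members called was 1 with probes averaged (Blvrb) or with the 6 arrays of that day alone (Hmox1), and 2 with each probe tested on its own (Blvrb and Ftl1). At day 28 it was 1 without a filter on dim probes or with the 6 arrays of that day alone, and over both days it was 1 without that filter. For the other haem and iron genes at day 28 it was 20 with normexp and quantile normalization, 18 with the slide as a random block (estimated correlation -0.09) and 3 with the 6 arrays alone. In the day 1 pools 1 member was at least 2-fold apart with probes averaged. Leaving out 1 array gave 0 to 0 members at day 14, 0 to 2 at day 28, 1 to 2 over both days, 0 to 0 for the difference between days, and 2 to 15 other genes. Beyond those arrays, the Tfrc call at day 28 was lost under quantile normalization (0.36, limma adjusted p = 0.0803), with probes averaged (0.33, adjusted p = 0.108), without the filter (0.41, adjusted p = 0.0578) and with the 6 arrays alone (0.41, adjusted p = 0.102), the Hmox1 call over both days without the filter (2.34, adjusted p = 0.0659), and that of Slc11a2 over both days under median scaling (-0.34, adjusted p = 0.0546), without the filter (-0.38, adjusted p = 0.0610) and with probes averaged (-0.11, adjusted p = 0.623). With probes averaged the members called at day 28 were Blvrb and Ftl1.

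Reversed ratios were all uncalled, the furthest from 0 was -0.20 (Blvra at day 14), and the cause was not tested. Blvra at day 14 was at -0.024 with normexp, -0.036 with the slide as a random block and -0.20 to 0.26 without 1 array, at day 28 -0.063 to 0.48 and over both days -0.022 to 0.26 without 1 array. Fth1 at day 14 was at 0.0048 with normexp, 0.00080 with probes averaged, 0.043 with the slide as a fixed block and -0.11 to 0.020 without 1 array, at day 28 at -0.13 with normexp, and over both days at -0.018 with quantile normalization, -0.065 with normexp and -0.00058 to 0.078 without 1 array. Ftl1 at day 28 was at -0.00072 with quantile normalization, Tfrc at day 14 at -0.14 with the slide as a fixed block and -0.031 to 0.097 without 1 array, and Slc40a1 at day 28 at -0.13 to 0.33 without 1 array.

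Over all genes the number called at day 14 was 57, against 121 with normexp, 133 with the slide as a random block, 28 without the filter, 22 with the 6 arrays alone, 36 with the replicate block and 0 with the slide as a fixed block, and at day 28 it was 842, against 1857 with the slide as a random block and 431 with the 6 arrays alone. Without 1 array it ran from 1 to 93 at day 14, from 211 to 976 at day 28 and from 588 to 1148 over both days, where it was 1206. With the replicate number as a block, the call of Slc11a2 over both days was lost (-0.38, limma adjusted p = 0.0540), leaving 2 members, while the counts of members at day 14 (0), at day 28 (2) and for the difference between days (0) were those of the fit without it, and the other genes at day 28 came to 12. Whether the numbers pair ANP with VC animals is not known. The slide as a fixed block could not be estimated for day 28, for both days or for their difference, because the ANP arrays of day 28 have their slide to themselves, and the fit of 1 day does not apply to results over both days.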
